A study of Mus musculus with 6 samples.

Results

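A set of 10 genes for hypothalamic peptides was followed well by well in single cells from the region of the ventromedial hypothalamus (VMH): Gal, Nts, Npy, Agrp, Pmch, Trh, Ghrh, Kiss1, Tac2 and Cck. They are among the 21926 genes in the count tables, and were chosen by name because each is used as a marker of neurons that lie beside the VMH. The cells came from 3 male and 3 female mice at postnatal day 10, all of genotype Ai14f/+;Sf1-Cre, 1 plate of 96 wells per mouse. In this cross Cre recombinase is driven by the promoter of Sf1 (Nr5a1), a transcription factor of VMH neurons, and Ai14 is a reporter that makes a red fluorescent protein in cells where Cre has been active and in their descendants. Both sexes carried both alleles and no untreated or Cre-negative group was analysed here. Per the labels, roughly cut hypothalamus was dissociated with papain and single cells were processed by the BD Precise whole transcriptome method, and the values are whole-number counts per gene and well. The title of the series concerns signaling through estrogen receptor alpha and a sex difference in energy expenditure, so the design compares the sexes.

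Neuropeptides are made as large precursors, cut in the secretory pathway and released from dense core vesicles, and a neuron that uses one usually carries very many copies of its messenger RNA. Hypothalamic cell types are therefore often told apart by a single peptide. Npy and Agrp mark appetite-promoting neurons of the arcuate nucleus, Pmch marks neurons of the lateral hypothalamus, and Kiss1 with Tac2 marks arcuate neurons that drive the reproductive axis. VMH neurons are mostly glutamatergic, use the vesicular glutamate transporter Slc17a6 and express Nr5a1 and Fezf1.

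Of 576 wells, 530 held at least 500 genes with a count and under 25% of counts in genes starting mt-, and these were kept. The kept wells numbered 93, 84 and 92 in males and 88, 87 and 86 in females. They held 783270, 535469 and 774670 counts in males and 441260, 185654 and 591768 counts in females. Female 2 was the shallowest, with a median of 2097 counts per kept well, against 5170 to 7979.5 in the other mice. The neuronal gene Stmn2 had a count in 97.4% of kept wells, Slc17a6 in 76.8%, Fezf1 in 39.8% and Nr5a1 in 29.4%. In 12 kept wells, 10 of them from female 1, markers of non-neuronal cells outnumbered those of neurons, and all 10 peptide genes were at 0 there. Those wells were shallow, at a median of 938.5 counts, against 6013.5 in the other kept wells, and 0 of 12 allows up to 25% of such wells to hold a count.

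A well was called high for a gene when it held at least 10 counts of it and at least 0.2% of its counts were of that gene, and low when it held 1 to 3 counts. By this limit 16 of the 530 wells, or 3.02%, were high for at least 1 of the 10 genes, and they belonged to all 6 mice. Counts are not corrected for gene length, so they are compared between wells and mice and not between genes. The highest values just outside the limit were 25 counts of Npy (0.192%) and 14 of Nts (0.191%), and the lowest inside it were 10 of Npy (0.214%) and 15 of Kiss1 (0.247%). The 10 genes fell into 3 kinds. Agrp, Pmch, Kiss1 and Tac2 had 1 high well each, in which 92.7%, 99.7%, 83.3% and 78.7% of all their counts lay, and otherwise only low wells. Trh and Ghrh had low wells alone. Gal, Nts, Npy and Cck had 3 or 4 high wells and also wells between the limits.

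**Figure D1:**
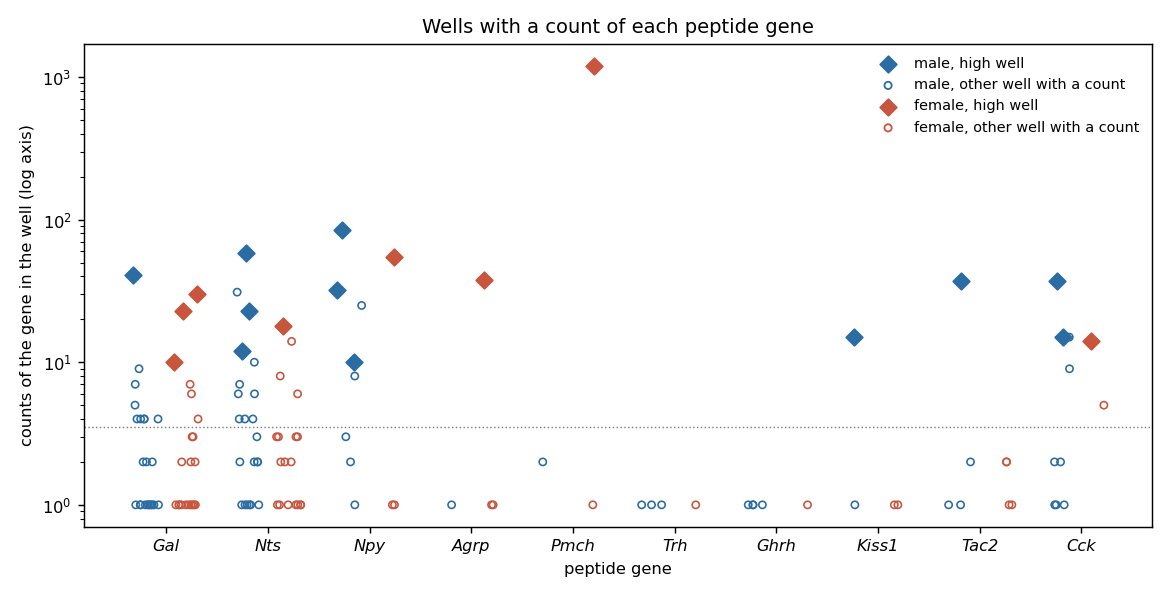
Counts of each peptide gene (x axis) in every kept well with at least 1 count (y axis, log scale), males left of females. Filled diamonds are high wells, open circles are other wells, and points above the dotted line hold more than 3 counts. Agrp, Pmch, Kiss1 and Tac2 each have 1 well far above low scattered counts, while Gal and Nts also have wells at many levels between 1 count and their highest, 41 and 58.

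Pmch encodes the precursor of melanin-concentrating hormone, a peptide of the lateral hypothalamus that promotes feeding and sleep. The 1 high Pmch well came from female 3 and held 1195 counts, 5.34% of its 22385 counts (exact Poisson interval 1128 to 1265 counts). It was the deepest of all kept wells. Only 1 Pmch count lay in the 85 other wells of that plate, 0.0837% of the number in the high well. The other 5 plates held 2 Pmch counts, both in 1 well of male 3 at the same plate position.

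Parpbp, a gene of DNA repair, had 234 counts in the Pmch well and 14 single counts in 14 of the 85 other wells of that plate, and 0 counts in the 444 wells of the other 5 plates. The annotation places Pmch on the plus strand at chr10:88091072-88092375 and Parpbp on the minus strand at chr10:88091432-88146941 (mm10). Of the 749 exonic bases of Pmch, 435 are shared with exons of Parpbp. No source used here gives the strand of counting, so reads of the pair cannot be told apart.

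The Pmch well also held 29 counts of Tac1, 11 of Gad1, 11 of Fezf1, 10 of Penk and 8 of Slc17a6. Tac1 encodes substance P, Gad1 makes the transmitter GABA and Penk encodes enkephalins. Pcp4l1, with 13 counts there, had 7 counts in all other wells of the plate. The well held 4 counts of Gal and 0 of Cartpt and Nr5a1. Whether it held 1 cell or more was not tested, since no doublet caller was run on 530 wells.

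Kiss1 encodes kisspeptin, which acts on the neurons that release gonadotropin-releasing hormone, and Tac2 encodes neurokinin B. The high wells of both were the same well, from male 3, with 15 counts of Kiss1 and 37 of Tac2 among 6061. The 91 other wells of that plate held 0 counts of either gene, and the other 5 plates held 3 single counts of Kiss1 and 10 counts of Tac2 in 7 wells. Estrogen receptor gene Esr1, which is known in such arcuate neurons, had 2 counts in the well and a count in 3 of the 91 others. Lrrc17 had 5 counts there, of 6 in all kept wells. Pdyn, the dynorphin precursor that arcuate kisspeptin neurons are known to make, had 1 count, and Slc17a6 had 1.

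Promoter windows are shown for the gene of the deepest well, Pmch, and for Kiss1 and Tac2, whose high wells were the same well. They are the 250 bases before each start in RefSeq (GRCm38.p6), in which 9 of the 10 genes had an entry and Agrp had none. Capitals mark a match on either strand to the TATA box TATAAA, the E-box CACGTG, the homeodomain core TAATTA, the cyclic AMP response element TGACGTCA or the GC box GGGCGG, with overlaps between motifs allowed.
Pmch, chr10:88090822-88091071, plus strand: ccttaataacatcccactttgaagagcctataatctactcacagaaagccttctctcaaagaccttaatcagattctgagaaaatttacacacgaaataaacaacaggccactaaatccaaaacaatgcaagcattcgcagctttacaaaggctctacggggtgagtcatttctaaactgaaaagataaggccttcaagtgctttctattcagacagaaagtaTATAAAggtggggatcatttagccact
Kiss1, chr1:133326962-133327211, plus strand: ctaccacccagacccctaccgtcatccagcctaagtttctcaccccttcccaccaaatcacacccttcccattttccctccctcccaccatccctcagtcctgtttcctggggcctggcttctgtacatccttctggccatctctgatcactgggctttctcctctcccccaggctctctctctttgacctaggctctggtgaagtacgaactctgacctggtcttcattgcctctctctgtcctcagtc
Tac2, chr10:127724228-127724477, plus strand: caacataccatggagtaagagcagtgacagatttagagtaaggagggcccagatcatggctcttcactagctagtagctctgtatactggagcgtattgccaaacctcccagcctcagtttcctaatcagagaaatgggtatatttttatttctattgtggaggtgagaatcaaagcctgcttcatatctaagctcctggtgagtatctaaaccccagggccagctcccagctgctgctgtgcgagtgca
The Pmch window holds TATAAA beginning 27 bases before the start, a motif found in 12.4% of 32851 promoter windows of this length. The Kiss1 and Tac2 windows hold none of the 5 motifs. By GENCODE the Kiss1 gene begins upstream of the RefSeq start, at chr1:133321875-133329901, where it overlaps Golt1a and Gm28040 on the same strand. Both of these had 0 counts in the kept wells.

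Npy encodes neuropeptide Y and Agrp encodes agouti-related peptide, an antagonist of melanocortin receptors, and the pair is known from hunger-promoting arcuate neurons. The 1 high Agrp well, from female 2, held 38 counts of Agrp and 55 of Npy among 2085 counts, 1.82% and 2.64% of the well. The 86 other wells of its plate held 1 count of each. It had 8 counts of Cited1, a transcriptional coactivator gene with 9 counts in those 86 wells, and 0 counts of Gad1, Gad2, Slc32a1 and Slc17a6.

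The 3 other high Npy wells were from males and held 0 Agrp counts. In male 1, a well with 85 Npy counts held 68 of Pomc, the precursor of melanocortins, with 31 of Cited1 and 6 of the arcuate transcription factor Isl1. In male 2, wells with 32 and 10 Npy counts held 316 and 123 counts of Sst, the somatostatin gene, and 4 and 6 of Pnoc, the nociceptin gene. Another male 2 well, with 8 Npy counts, held 61 of Sst. The arcuate pair Npy and Agrp thus met above 3 counts in 1 of the 6 wells with more than 3 Npy counts, Npy and Sst in 3 and Npy and Pomc in 1.

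**Figure D2:**
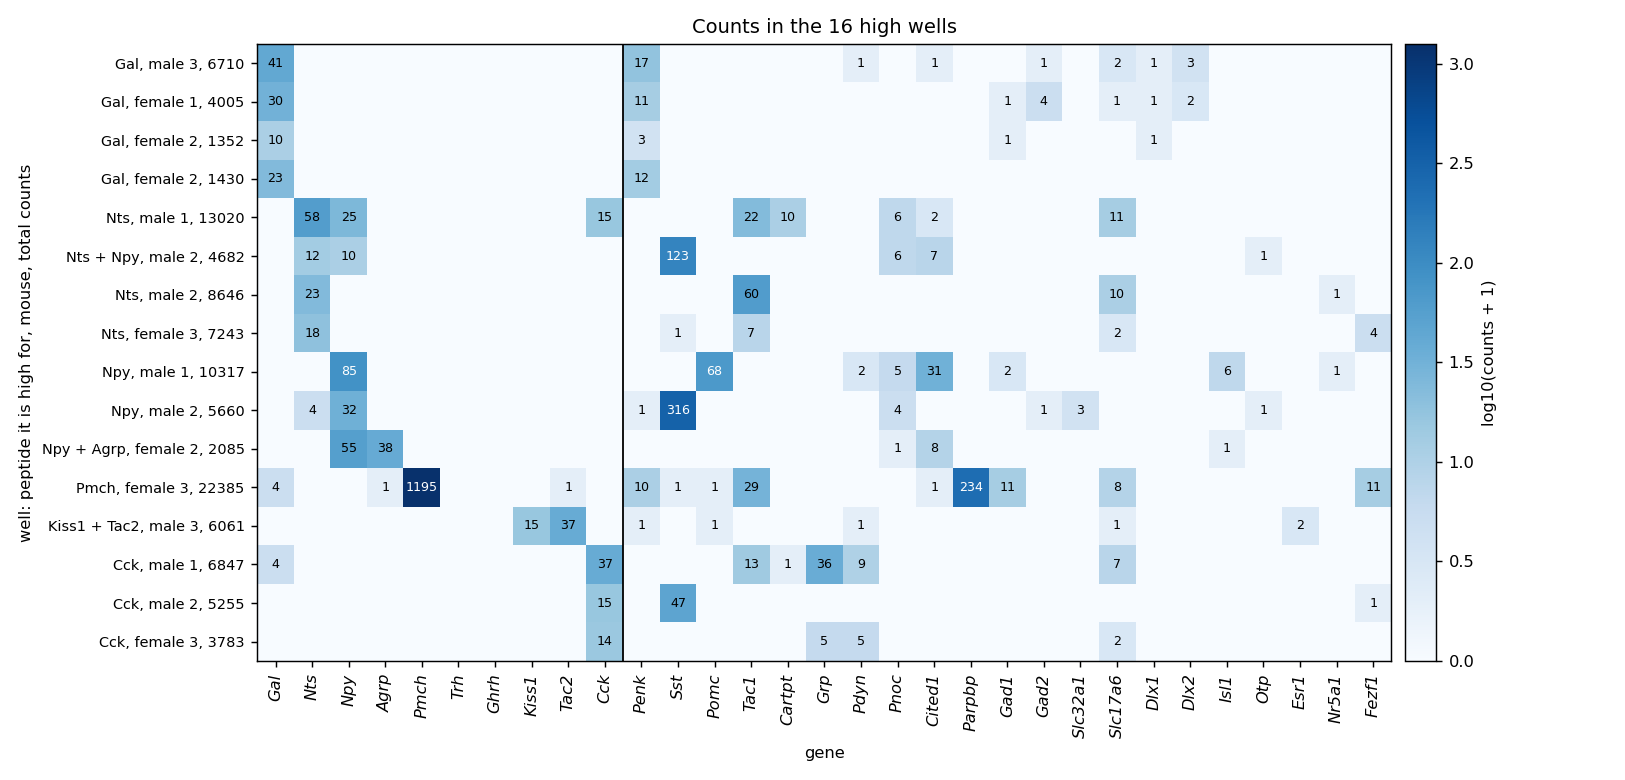
Counts of the 10 peptide genes (left of the line) and of partner, transmitter and transcription factor genes (right) in the 16 high wells. Each row is a well, named by the peptide it is high for, its mouse and its total counts. Numbers are counts, colour is log10(counts + 1) and empty cells are 0. The Gal wells share Penk, the male 2 Npy wells share Sst, 2 of the 3 Cck wells share Grp, and Pmch, Agrp and Kiss1 are each high in 1 well.

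Cck encodes cholecystokinin, which acts on appetite. Its 3 high wells held 37 counts in male 1, 15 in male 2 and 14 in female 3. The male 1 well also held 36 counts of Grp, gastrin-releasing peptide, 6 of Ppp1r17, a marker of dorsomedial neurons, 13 of Tac1 and 9 of the dynorphin gene Pdyn. The female 3 well likewise held 5 of Grp, 7 of Ppp1r17 and 5 of Pdyn. The male 2 well held none of these and had 47 counts of Sst, 11 of Cbln2 and 9 of Nxph4, a gene at 0 in the other 83 wells of its plate. In male 1 a well between the limits, with 9 counts each of Cck and Gal, held 25 of Grp.

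Across all wells, Grp had a count in 4 of 11 Cck wells (36.4%), against 10 of 519 without Cck (1.93%), and Ppp1r17 in 5 of 11 (45.5%), against 59 of 519 (11.4%). These partners, like Sst and Pnoc beside Npy, were chosen after their values were seen. Pnoc had a count in 6 of 11 Npy wells (54.5%), against 69 of 519 others (13.3%). Sst had one in 5 of 11 (45.5%), against 98 of 519 (18.9%).

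Gal encodes galanin, a peptide of many hypothalamic groups including neurons of the lateral and dorsomedial hypothalamus. Its 4 high wells held 41 counts in male 3, 30 in female 1 and 23 and 10 in female 2. All 4 also held Penk, with 17, 11, 12 and 3 counts in the same order, and the 17 was the highest Penk count of any kept well. The male 3 and female 1 wells held 3 and 2 counts of Dlx2, a transcription factor of GABAergic neurons, and the female 1 well held 4 of Gad2. Dlx1 had 1 count in 3 of the 4 wells. The male 3 and female 1 wells also held 2 and 1 counts of Slc17a6. The female 2 well with 23 Gal counts held 0 of Gad1, Gad2, Slc32a1, Dlx1 and Dlx2, and Slc32a1, Nr5a1 and Fezf1 were at 0 in all 4. The female 2 wells with 23 and 10 Gal counts were shallow, at 1430 and 1352 counts in all. The male 3 and female 1 wells held 6710 and 4005. A count of 0 in the female 2 wells therefore says little about absence.

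A further 11 wells held 4 to 9 Gal counts, and Penk had a count in 2 of them. In male 1, 7 Gal counts lay beside 155 of Npvf, the gene of RFamide-related peptide and the highest Npvf count of any well. In female 3, 7 Gal counts lay beside 405 of Sst and 14 of Th, the rate-limiting enzyme of dopamine synthesis. In another well of female 3, 6 Gal counts lay beside 7 of Crh, corticotropin-releasing hormone. Of the 15 wells with more than 3 Gal counts, 7 had a count of Gad1, Gad2 or Slc32a1 and 12 had one of Slc17a6. Among the 486 wells without a Gal count, 378 (77.8%) had one of Slc17a6, so 12 of 15 was not a lower share. Gad1 alone had a count in 6 of the 15 and in 21 of the 486 (4.32%).

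At any level, 44 wells had a Gal count, between 4 and 13 in each mouse, and 21 of them had a single count. Gad1 had a count in 20 to 41.7% of the Gal wells of each mouse and in 1.2 to 8.11% of the other wells. The means were 29.6 ± 9.60% and 4.38 ± 2.51% (SD, n = 6 mice), and the share was higher in the Gal wells in 6 of 6 mice. An exact sign-flip permutation test over mice gave p = 0.03125, the smallest that 6 mice allow, and 0.273 after Benjamini-Hochberg adjustment over 24 tests. Slc17a6 went the other way, with 55.5 ± 30.5% in the Gal wells and 78.0 ± 20.3% in the others, lower in 6 of 6 mice at the same exact p and adjusted p. Dlx1 had a count in 7 of 44 Gal wells, from 4 mice, and in 1 of 486 others.

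Wells with a Gal count were deeper, at a median of 6831.5 counts, against 5785 in the others. When each well was thinned to 1986 counts, Gad1 was left in 7 of 40 Gal wells (17.5%) and in 2.97% of 437 others, and Slc17a6 in 47.5% and 54.9%. These shares are pooled over wells and are not means over mice. Pooled without thinning, over 44 and 486 wells, Gad1 was in 31.8% and 4.32% and Slc17a6 in 65.9% and 77.8%.

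Counts of all genes were then summed per mouse over the Gal wells and over the other wells and fitted with edgeR, with the mouse as a block. Of 2583 genes tested, 9 (0.348%) had an adjusted p under 0.05, 5 higher and 4 lower in the Gal wells, and DESeq2 called 0 of them. Of the other-peptide list, 10 of 37 genes were tested, with a median log2 fold change of 0.09, against -0.02 over all genes, and Penk and Pomc were the 2 called, both higher. Of the VMH list, 5 of 10 were tested, Slc17a6 fell, none rose, and the median was -0.75. None of the 10 peptides was itself tested, since all were below the filter on low counts or defined the groups.

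Penk stood at 390, 416 and 4256 CPM (counts scaled to a total of 1e6) in the Gal wells of male 3, female 1 and female 2, the mice with high Gal wells, against 78.2, 36.2 and 60.7 CPM in their other wells. In male 1, male 2 and female 3 it stood at 18.0, 94.4 and 149 CPM in the Gal wells, against 62.5, 49.6 and 47.5 CPM in the others. It was thus higher in 5 of 6 mice, but in each of these 5 over 60% of the Penk counts of the Gal wells lay in 1 well. Without the 4 high wells, or without male 3, Penk was below the filter on low counts and was not tested, so its call is not used as support. Pomc was called as well (log2 fold change 1.70, edgeR adjusted p = 2.87e-16, and 1.09 without male 2) but was higher in 3 of 6 mice and lower in the other 3. Most of its counts in Gal wells lay in 5 wells with 73 to 135 Pomc counts and 1 to 3 Gal counts. Calb2 (calretinin), Nrgn (neurogranin) and Chchd10, a mitochondrial gene, were lower in the Gal wells of 6 of 6 mice, with log2 fold changes of -0.85, -0.68 and -0.60, and Hpcal1, a neuronal calcium sensor, was higher in 6 of 6, at 0.69. Slc17a6 was lower in 5 of 6 mice (-0.76), and Gpx3 (0.61) and Cd63 (1.05) were higher in 5 of 6. With the 4 high wells left out, Pomc, Gpx3 and Calb2 were the 3 genes called. Without male 2, female 2 or female 3, the count was 5, 16 or 5.

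Nts encodes neurotensin, which acts on dopamine neurons and lowers feeding. Its 4 high wells held 58 counts in male 1, 23 and 12 in male 2 and 18 in female 3. The male 1 well held 25 counts of Npy, 15 of Cck, 10 of Cartpt, 22 of Tac1 and 11 of Slc17a6, and so carried 3 of the 10 peptides. The well with 23 had 60 counts of Tac1 and 10 of Slc17a6. The female 3 well had 8 of Cbln2, 7 of Tac1 and 4 of Fezf1, and the well with 12 was the Npy and Sst well named above.

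Of the 15 wells with more than 3 Nts counts, 11 had a count of Slc17a6, 7 of Fezf1 and 4 of Nr5a1. Gad1 was at 0 in all 15, Gad2 had a count in 2 and Slc32a1 in 1, and 2 of the 15 had a count of any of these 3. At any level, 40 wells had an Nts count, between 4 and 9 in each mouse. Gad1 was in 2.38 ± 5.83% of the Nts wells and 6.92 ± 3.84% of the others (SD, n = 6 mice; exact sign-flip permutation p = 0.0625, adjusted 0.273). Slc17a6 was in 81.3 ± 21.6% and 75.9 ± 21.0% (exact sign-flip permutation p = 0.562). Its share was higher in the Nts wells of 4 mice and lower in those of 2. Wells with an Nts count were deeper, at a median of 7281.5 counts, against 5824 in the others. Thinned to 1986 counts and pooled over wells, Gad1 was left in 2.5% of 40 Nts wells and 4.35% of 437 others, and Slc17a6 in 60% and 53.8%. Pooled without thinning, over 40 and 490 wells, Gad1 was in 2.5% and 6.94% and Slc17a6 in 85% and 76.1%.

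**Figure D3:**
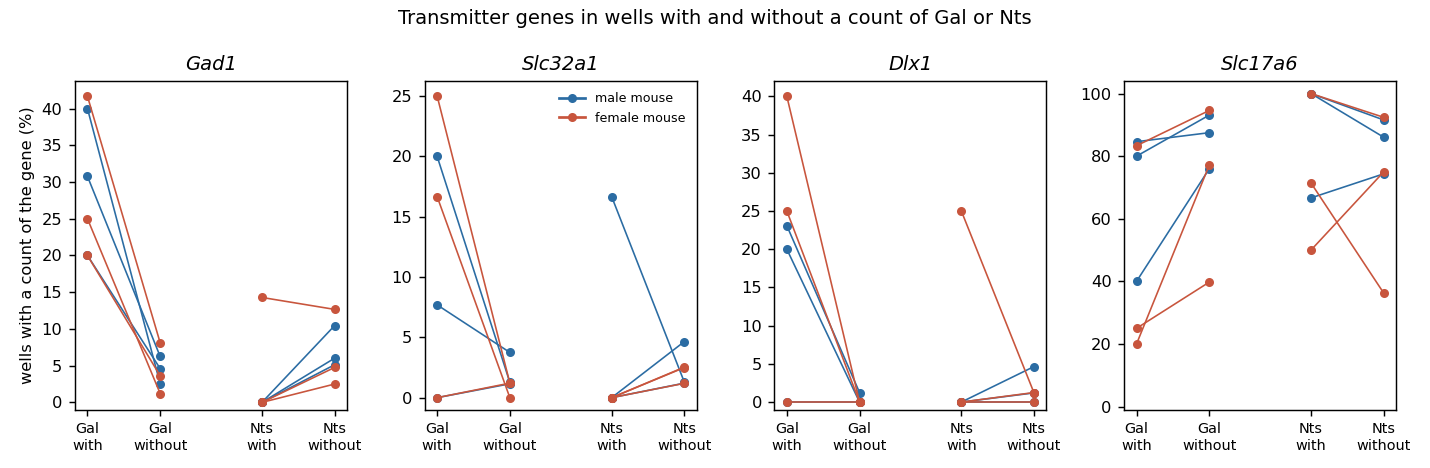
Share of wells with a count of Gad1, Slc32a1, Dlx1 or Slc17a6 (y axis, %) among wells with and without a count of Gal (left pair) or Nts (right pair). Each line is 1 mouse. In all 6 mice the Gad1 share is higher and the Slc17a6 share lower in Gal wells than in the others, while the Nts wells of 5 mice hold no Gad1.

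In the same kind of fit, 3 of 2404 genes (0.125%) passed between wells with and without an Nts count, and DESeq2 called 0. Cartpt, whose peptide lowers feeding and which lateral hypothalamic neurons express, was higher in the Nts wells of 5 of 6 mice, at 277 ± 265 CPM, against 61.9 ± 38.4 CPM (log2 fold change 2.00 ± 0.40 (SE), edgeR adjusted p = 0.0359). Tac1 was higher in 5 of 6 mice, at 1509 ± 799 CPM, against 745 ± 331 CPM (1.01 ± 0.23, edgeR adjusted p = 0.0492). The transcription factor Six3 was lower in 6 of 6 mice, at 33.1 ± 42.9 CPM, against 104 ± 33.5 CPM (-2.28 ± 0.49, edgeR adjusted p = 0.0458). The call count was 0 without male 1 or male 3, 1 without male 2, and 0 over wells with at least 1000 genes, so the 3 calls sit at the threshold. Cartpt had a count in 12 of 40 Nts wells and 47 of 490 others. In 5 mice 50% or more of the Cartpt counts in Nts wells were in 1 well. For Tac1, 1 well held 80.8, 83.3, 79.5 and 96.7% of these counts in male 1, male 2, male 3 and female 1. In female 2 and female 3 it held 45.1 and 36.8%. With a lower limit of 5 counts and 0.1%, 6 Nts wells of 3 mice could be set against their 259 other wells, and 7 of 3950 genes (0.177%) passed. Npy was among the 4 called higher, but its 35 counts there were the 25 and 10 of the male 1 and male 2 wells described above, so the call adds nothing to them.

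Over the 530 wells, within each mouse, the genes whose log-scaled level ran most like Gal were Gad1 (Pearson r = 0.29), Penk (0.28) and Glb1 (0.24). For Nts they were Cartpt (0.28), Zfyve1 (0.27) and Zfp143 (0.27), of which the last 2 had a count in 12 and 10 wells. These are weak correlations in sparse counts of 11176 genes and are given as a description.

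The 16 high wells were as deep as the other 514, at a median of 5860.5 against 5889.5 counts, and all held Stmn2. Of 2 other neuronal genes, Snap25 had a count in 11 of 16 (against 394 of 514) and Syt1 in 6 of 16 (against 311 of 514). The summed neuronal list stood at 11810 CPM, against 12264 CPM in the other wells. Nr5a1 had a count in 2 of 16 (against 154 of 514) and Fezf1 in 3 of 16 (against 208 of 514). The summed VMH list stood at 731 CPM, against 1388 CPM in the other wells. Its 80 counts in the high wells were uneven, with 20 in the Pmch well. The wells with 58, 23 and 18 Nts counts held 18, 14 and 8 of them, among totals of 13020, 8646 and 7243. The remaining high wells held 0 to 7 each. Markers of microglia and of endothelial and mural cells were at 0 in all 16. Astrocyte, oligodendrocyte and ependymal lists gave 0 to 2 counts per high well, with 6 of 8, 5 of 8 and 5 of 6 of their genes at 0.

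Summed per mouse, the high wells of the 5 mice with at least 2 (15 wells) differed from their 427 other wells in 10 of 1901 genes (0.526%), 1 higher and 9 lower, and DESeq2 called 1. Calb1 (calbindin) was lower in all 5 mice without overlap, at 103 ± 76.5 CPM, against 636 ± 238 CPM (log2 fold change -2.49 ± 0.35 (SE), edgeR adjusted p = 3.05e-09). It kept its call in 16 of 16 alternatives, but leaving out female 1, a mouse not among the 5, only repeated the main fit. Cdh13 (T-cadherin) and Mt1 (metallothionein) were lower by the same measure, at -2.17 and -2.77, both without overlap. Mt1 gave -8.93 without male 1, since the high wells of the other mice held 0 counts of it, and that value is no measure of size. Oxct1, Ppp3ca, Chchd10, Calb2 and A230065H16Rik were lower in 5 of 5 mice and Nrgn in 4 of 5. Cd63, an endosome membrane gene, was higher in 4 of 5 mice (1.42 ± 0.39, edgeR adjusted p = 0.0423). Without male 1, 4 genes were called, and Calb2 and Nrgn, at -1.06 and -0.92 over the 5 mice, stood at -0.60 and -0.31. Nrgn stood at -1.99 without male 2. Each of the 3 VMH-list genes tested was lower and none passed. Of the 7 neuronal-list genes tested, 6 were lower, 1 was higher and none passed. Their median was -0.31, against -0.10 over all genes.

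Trh, the precursor of thyrotropin-releasing hormone, and Ghrh, which drives growth hormone release, are made by paraventricular and arcuate neurons. Trh had 4 counts in 4 wells (3 in males, 1 in females), and Ghrh had 5 counts in 5 wells (4 in males, 1 in females). No well held more than 1 count of either, and 1 of the Trh counts and 1 of the Ghrh counts lay in a well with another of the 10 genes.

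The place of these counts on the plates was also compared. The 46 wells left out for few genes held 4640 counts in all and 0 of the 10 genes, which allows up to 647 CPM, so the 0.91 to 43.3 CPM seen in kept wells that were not high would not be detectable there. For the 46 cases of a well above 3 counts, the same position on the other plates had a count of that gene in 15 of 216 wells (6.94%), against 5.53% of the other positions. In all, 115 wells had a count of any of the 10 genes, 15 had at least 2 of them and 3 had at least 3. Of 45 gene pairs, 18 met in a well, and 7 met with both above 3 counts.

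By sex, Gal stood at 53.6, 16.8 and 62.0 CPM in males and 79.3, 199 and 50.7 CPM in females. With its high wells left out it stood at 53.6, 16.8 and 9.12 CPM in males and 11.4, 21.9 and 50.7 CPM in females. Npy stood at 144, 93.4 and 3.87 CPM in males and 2.27, 302 and 0 CPM in females. The sexes overlapped in each of these.

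**Figure D4:**
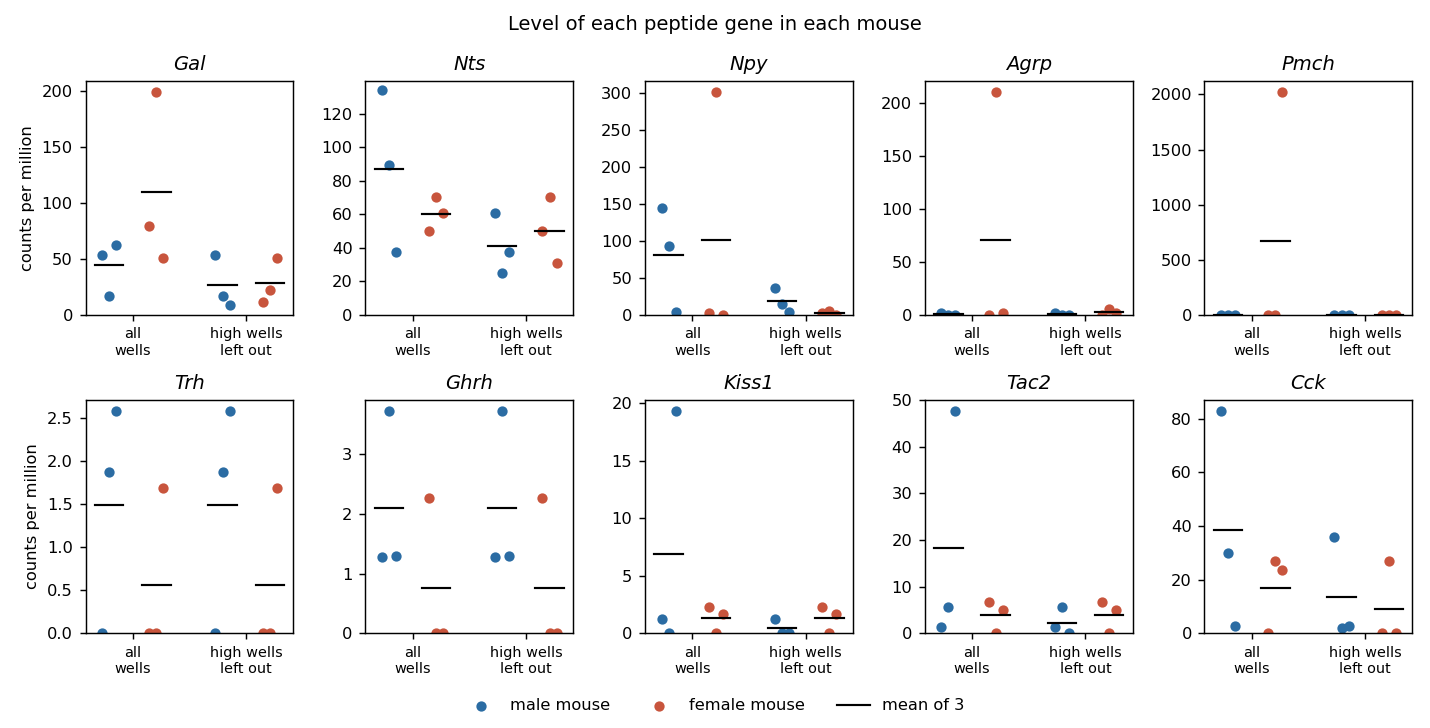
CPM of each peptide gene, its count over the total count, summed over the kept wells of each mouse, with all wells (left) and with that gene's high wells left out (right), males left of females. Points are mice and black lines are means of 3. The high female points of Agrp and Pmch and the high male points of Kiss1 and Tac2 each come from 1 well.

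Between the sexes, 0 of 6794 genes (0%) had an edgeR adjusted p under 0.05, with 167 at an unadjusted p under 0.05, and DESeq2 called 4. Only 4 of the 10 peptides passed the filter on low counts. The log2 fold change of male over female was -1.16 ± 0.57 for Gal, 0.58 ± 0.45 for Nts, -0.01 ± 1.54 for Npy and 1.33 ± 1.06 for Cck (SE, n = 3 each), and the smallest edgeR adjusted p was 0.999. Without the high wells those of Gal and Nts were -0.08 and -0.25. Npy gave 6.13 without female 2, and Cck -0.02 without male 1.

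The share of wells with a count was compared over mice, where 3 against 3 cannot give a two-sided exact p below 0.1, and 10 genes were compared. Cck had a count in 5.38, 2.38 and 2.17% of male wells and 0, 1.15 and 1.16% of female wells. These did not overlap (3.31 ± 1.79 against 0.771 ± 0.668%, SD, n = 3 each, exact permutation p = 0.1), but at 2 or more counts they did. Gal was in 8.46 ± 4.79% of male and 8.08 ± 5.12% of female wells (exact permutation p = 0.7). Nts was in 8.15 ± 1.43 and 6.91 ± 2.05% (exact permutation p = 0.6), and Npy in 2.99 ± 1.69 and 1.15 ± 1.15% (exact permutation p = 0.3). High wells made up 3.39 ± 1.30% of male and 2.69 ± 1.35% of female wells (exact permutation p = 0.7), so no difference between the sexes was detectable at this number of mice.

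A fixed list of 18 receptor genes of these peptides had at most 6 counts of any gene in any well. The list does not cover every receptor, and Mc4r was not on it. Cckbr, a receptor of cholecystokinin, had a count in 28.1% of kept wells and at most 5 in any. Mchr1, the receptor of melanin-concentrating hormone, had one in 17.5%, Sort1, a sorting receptor that also binds neurotensin, in 13.02%, and the melanocortin receptor Mc3r, at which agouti-related peptide acts, in 11.1%. Npy2r followed in 9.43%, Trhr in 8.11%, Kiss1r in 6.60%, Ntsr1 in 5.09% and Galr1 in 3.4%. Galr3 was in 4 wells, Galr2 and Trhr2 were in 2 each, and Ghrhr had 0 counts in 530 wells. Of these 18 receptor genes, 5 were tested between the sexes and none passed (median log2 fold change -0.11, against -0.03 over all genes).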

How the data were processed

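Single cells of 6 mice were measured, 1 plate each. The deposited values are whole-number counts per gene and well, as the authors made them and not normalised. HTSeq and mm10 are named in the submitters' processing notes. The sources used here give no versions, no aligner and no strand of counting, and do not say whether molecules or reads were counted. Well columns are named by plate position and carry no cell barcodes to compare. The labels do not mention pooling, so each plate was taken as 1 mouse.

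Counts were summed per mouse and tested with edgeR 4.0.16 in R 4.3.3 (filterByExpr, TMM scaling on the filtered genes, quasi-likelihood, Benjamini-Hochberg threshold 0.05), with the mouse as a block where wells of the same mice were compared. DESeq2 1.42.0 was the alternative tool. Exact permutation tests went through all assignments or sign flips with numpy 2.4.6. Exact intervals used scipy 1.17.1, at 95%, and a gene at 0 was allowed up to 3 counts. Intervals and floors cover counting error only. The fits were also run on simulated counts with set fold changes, a fixed dispersion and no differences between mice. Those counts held no single high wells, so they do not cover calls that rest on a single well. Thinning drew 1986 counts per well and left out 53 shallower wells, 38 of them from female 2. Positions are from GENCODE vM21 and promoters from RefSeq, both of GRCm38 (mm10).

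The members and lists were chosen with earlier results of these data known. A planned fit of high wells for each gene needed at least 2 high wells in each of 3 mice, which no gene had. The splits by any Gal count, by any Nts count and by high wells of any gene were chosen after seeing the data, as was the likeness of Gal and Nts to other genes. Genes beside a high well were named by a rule: all list members with at least 3 counts and the 5 genes with at least 5 counts and the largest ratio to the other wells of the plate, of which the text gives those that bear on a peptide, transmitter or nucleus. In fits, the 10 largest changes each way among genes past the threshold, of the same sign in every mouse and at 100 CPM or more, were named, with up to 4 per list. Gpx3, Cd63 and Nrgn in the high wells, values below these limits, wells between the limits, Lrrc17, Parpbp and Golt1a were named after their values were seen.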

Additional observations from a re-analysis of the deposited data

How the results depend on the processing

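The number of high wells was 16, 23 at a limit of 5 counts and 0.1%, 9 at 20 counts and 0.5%, and 14 over wells with at least 1000 genes. Over wells with at least 1000 genes, the high Gal wells went from 4 to 2, and the number for each other peptide gene was unchanged. At the lower limit 1 peptide gene, Nts, had high wells enough for a fit, against 0: in 3 mice 7 of 3950 genes passed, with Ankrd29, Npy, Cartpt and Pnoc higher and Calb1, Mt1 and Tppp3 lower. Between the sexes 0 genes were called, 4 with DESeq2, 20 with no filter on low counts and 0 to 3 with each mouse left out. With the replicate number as a block 0 were called. Same-numbered male and female samples correlated at -0.12, -0.09 and 0.16 in their deviations, and differently numbered ones at -0.10 to 0.21. The labels do not say that a number pairs the mice, and correlations over so few mice cannot decide it.

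For the wells with a Gal count the 9 calls became 0 with DESeq2, 0 with no replicate block (the mouse left out of the model), 279 with no filter, 16 with at least 1000 genes and 3 with the high wells left out, and 5 to 16 with each mouse left out. For the wells with an Nts count the 3 calls became 0 with DESeq2, 0 with no replicate block, 1 with RLE scaling, 180 with no filter, 0 with at least 1000 genes and 0 to 3 with each mouse left out. For the high wells the 10 calls became 1 with DESeq2, 2 with no replicate block, 53 with no filter and 4 to 13 with each mouse left out. The cause was not tested.

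Directions reversed for Nts between the sexes without its high wells (-0.25), for Npy with no filter (0.16), with the replicate block (1.05) and over -0.84 to 6.13 with each mouse left out, and for Cck over -0.024 to 2.11. Male minus female shares of wells reversed for Nts when thinned (-1.24 percentage points), for Gal over -2.38 to 3.32, for Tac2 over -0.78 to 0.38 and for any high well over -0.0811 to 1.30 with each mouse left out. The Slc17a6 share of Nts wells at 2 or more counts stood at -3.44 points against the others. No called gene reversed where it was tested. Leaving out a non-neuronal cluster was not run, since clustering did not set such wells apart, and 12 wells with more non-neuronal than neuronal marker counts were left out in their place. Depth limits female 2 most.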
